A study of Mus musculus and Homo sapiens with 47 samples.

Results

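The 38 Hox genes described here are 10 genes of the Hoxa cluster, 10 of the Hoxb cluster, 9 of the Hoxc cluster and 9 of the Hoxd cluster, out of 24014 genes in the bulk count table of mouse intestinal cells. They were taken by name from a list of mouse Hox genes. No measured value selected them, but earlier results of these data were known when they were chosen. By paralog number, 7 were anterior (paralog groups 1 to 3), 15 central (groups 4 to 8) and 16 posterior (groups 9 to 13). All libraries came from adult mice of genotype Eed F/F; Lgr5EGFP-IRES-CreERT on a mixed B6;129 background. Eed is floxed in these animals and the Cre recombinase is driven from Lgr5, a gene of intestinal stem cells, so that deletion is meant to start in Lgr5-expressing cells and to pass to their progeny. Tamoxifen (1 to 2 mg) was given on 5 consecutive days and on alternate days thereafter, and GFP-positive stem cells were sorted from the epithelium of the proximal intestine, although the source label of the RNA samples reads villus cells. The groups are days 9 (3 libraries), 14 (2), 21 (2) and 30 (1) of bulk RNA, and days 7, 12 and 16 (1 library each) of single cells. What event the days are counted from is not stated, and no library from mice without the deletion was used, so every group carries the Cre, the floxed allele and the drug. Each comparison is therefore of a later day with an earlier one. The labels name biological replicates but do not tie them to animals, so a p-value here reflects variation among these libraries, which may be technical.

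Hox genes encode homeodomain transcription factors that give cells a position along the head-to-tail axis. They lie in clusters, and genes at one end of a cluster (low paralog numbers) act in anterior tissue while those at the other end (high numbers) act in posterior tissue and the hindgut. Where a Hox gene is silent, its chromatin usually carries trimethylated histone H3 lysine 27, placed by Polycomb repressive complex PRC2. Eed is the PRC2 subunit that binds this mark and keeps the catalytic subunits Ezh1 and Ezh2 active, and loss of PRC2 is known to release Hox clusters in many cell types.

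Eed itself read 46.1, 39.6 and 46.3 CPM (counts per 1000000 scaled library counts) at day 9, 86.1 and 81.5 at day 14, 34.2 and 38.7 at day 21, and 38.2 at day 30. No source used here names the floxed exons, so a whole-gene count is no check of the deletion. Epcam, a surface protein of epithelium, was at 1320 CPM or more in every library, and Lgr5 at 115 CPM or more. The 8 bulk libraries held 21328684 to 27900351 counts. The 2 day 14 libraries stood apart, with 14988 and 13707 genes detected, against 16163 to 16952 in the other libraries, and 51.1% of genes were called between day 14 and day 9. Results that rest on day 14 carry that difference between libraries.

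Summed over the 38 genes, Hox RNA was higher in both day 21 libraries and in the day 30 library than in any day 9 library. The sum was 10.2, 23.6 and 6.82 CPM at day 9, 19.2 and 12.97 at day 14, 62.1 and 53.7 at day 21, and 75.2 at day 30. The values of days 9 and 14 overlap, and those of days 21 and 30 lie above them. The number of Hox genes with any count was 17, 24 and 19 at day 9, 26 and 17 at day 14, 34 in both day 21 libraries and 35 at day 30. In bulk RNA, more cells that express a gene and more RNA per cell cannot be told apart.

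**Figure D1:**
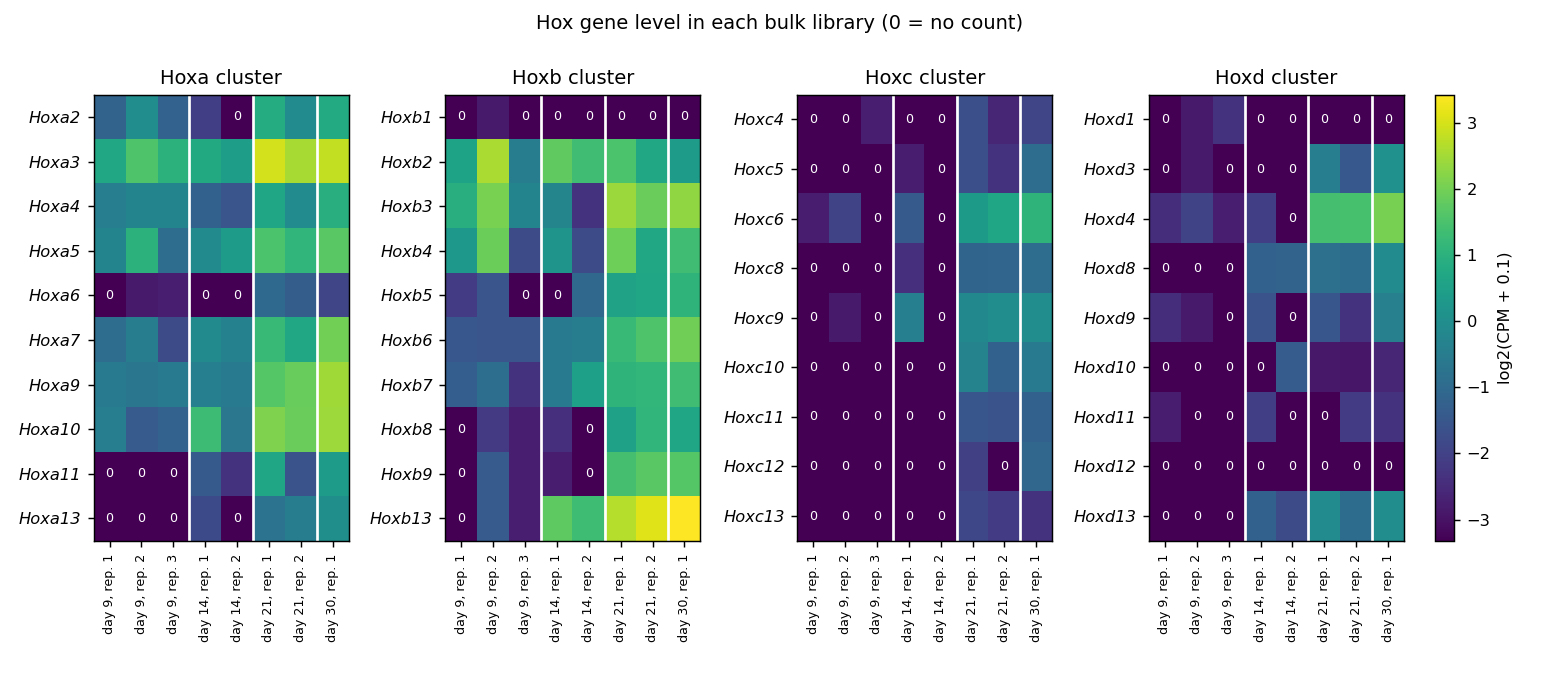
Level of each of the 38 Hox genes (rows, by cluster and paralog number) in each bulk library (columns, by day and replicate). Colour is log2 CPM with the small constant shown on the colour bar, and a printed 0 marks a library with no count; most rows turn brighter in the 2 day 21 libraries and the day 30 library, and Hoxd12 has no count anywhere.

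At day 21 against day 9, 20 of the 38 Hox genes were called higher and 0 lower by edgeR's quasi-likelihood test at an adjusted p below 0.05. Over all 14692 genes tested, 7.46% were called higher and 20.2% in either direction. Of the other 18 members, 9 were tested and not called and 9 had too few counts to be tested. The lowest day 21 library lay above the highest day 9 library for 29 of 38 members, tested or not, and below it for 0, while 24.7% of tested genes lay above. As a description, the median log2 fold change over the 29 members that passed the filter on low counts was 3.34 with genes at 0 counts set to their bounds, and the median over all tested genes was -0.01. Some of the 29 passed through the later libraries alone. The count of 20 was smaller with fewer libraries. It was 11 without day 9 replicate 1, 13 without day 9 replicate 3 and 10 without day 21 replicate 1. In those fits 4.14%, 4.48% and 4.45% of genes were called higher, and no called member changed direction. Without both day 14 libraries the count was 20. Scaling by library size in place of TMM moved the median of all genes by 0.22 on the log2 scale, moved the share of higher genes among all calls to 73.7% against 36.9%, and gave 21 Hox genes higher and 0 lower.

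The day 30 library gave 16 Hox genes higher than day 9 and 0 lower, against 3.67% of all tested genes called higher and 6.62% called lower. It is a single library, tested on the assumption that it varies like the other days. The 2 comparisons share the day 9 libraries, so their values are given side by side and not as separate evidence. All 16 were also called at day 21, and the other 4 called at day 21 were Hoxb5, Hoxc8, Hoxc9 and Hoxc10, with adjusted p = 0.0643, 0.0662, 0.0609 and 0.0548 at day 30. The day 30 value lay above every day 9 value for 33 of 38 members, and 36.1% of tested genes did so. Without day 9 replicate 1 the count at day 30 was 9, and without day 9 replicate 3 it was 10. Library-size scaling, which moved the median of all genes by 0.21, gave 21 Hox genes higher and put 72.7% of all calls higher against 35.7%.

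**Figure D2:**
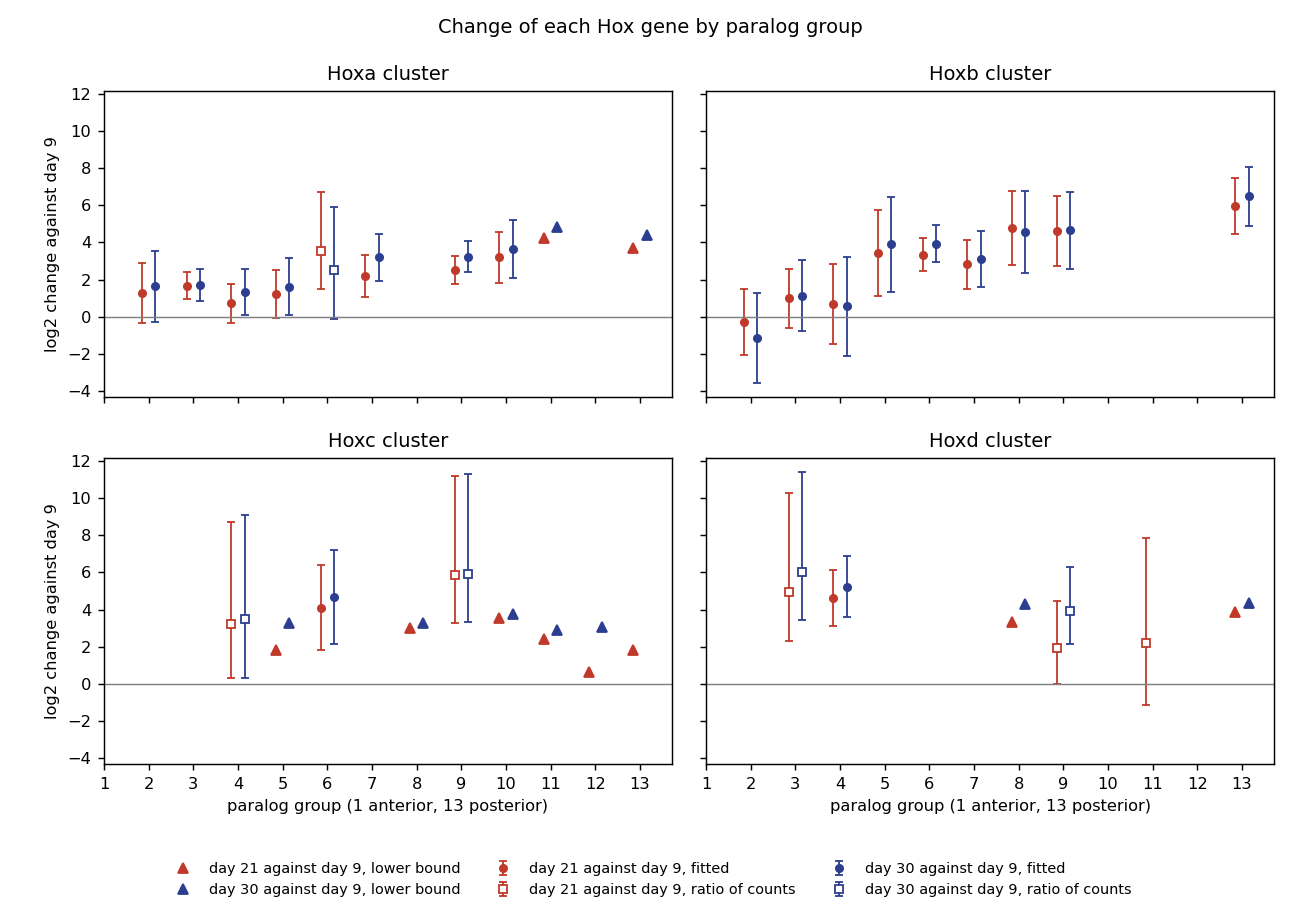
Change of each Hox gene at day 21 and at day 30 against day 9 (y axis, log2) by paralog group (x axis), 1 panel per cluster. Circles are fitted changes with 95% confidence intervals, open squares are ratios of counts with exact 95% intervals for genes with 1 to 3 counts at day 9, and triangles are lower bounds for genes with 0 counts at day 9; Hoxb2 lies below 0 on both days, and the Hoxb values are larger from Hoxb5 to Hoxb13 than from Hoxb2 to Hoxb4.

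In the Hoxa cluster, 6 of 10 genes were called higher at day 21, against 7.46% of all genes tested. They were Hoxa3, Hoxa7, Hoxa9, Hoxa10, Hoxa11 and Hoxa13, and the same 6 were called at day 30. Hoxa3, which patterns the thymus and parathyroid, was at 1.55, 2.84 and 1.93 CPM at day 9, 1.63 and 1.26 at day 14, 7.74 and 5.68 at day 21, and 6.85 at day 30. Its log2 fold change was 1.66 ± 0.32 (SE; adjusted p = 0.00871) at day 21 and 1.70 ± 0.38 (SE; adjusted p = 0.0269) at day 30. It was already detected in every day 9 library, and its day 21 libraries lay above all of them. Hoxa7, a gene of the trunk, was at 0.431, 0.609 and 0.193 CPM at day 9, 0.837 and 0.680 at day 14, 2.27 and 1.51 at day 21, and 3.84 at day 30, a log2 fold change of 2.17 ± 0.50 (SE; adjusted p = 0.0176) at day 21 and 3.19 ± 0.56 (SE; adjusted p = 0.00946) at day 30. Hoxa9, a regulator of blood stem cells, was at 0.603, 0.528 and 0.580 CPM at day 9, 0.651 and 0.583 at day 14, 3.02 and 3.52 at day 21, and 5.40 at day 30. The 5 libraries of days 9 and 14 lay close together for Hoxa9, and the 3 later ones lay well above. Its log2 fold change was 2.51 ± 0.33 (SE; adjusted p = 0.00117) at day 21 and 3.23 ± 0.37 (SE; adjusted p = 0.000939) at day 30. Hoxa10, which patterns the uterus, was at 0.646, 0.284 and 0.338 CPM at day 9, 2.37 and 0.534 at day 14, 4.22 and 3.58 at day 21, and 5.36 at day 30, and day 14 replicate 1 stood above replicate 2 toward the day 21 values. Its log2 fold change was 3.19 ± 0.60 (SE; adjusted p = 0.00765) at day 21 and 3.65 ± 0.68 (SE; adjusted p = 0.0120) at day 30.

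Hoxa11 and Hoxa13, at the posterior end of the Hoxa cluster, had no count at day 9. Hoxa11, a gene of the forearm and the uterus, was at 0 CPM in each library at day 9, 0.279 and 0.0971 at day 14, 1.46 and 0.230 at day 21, and 1.23 at day 30. That is 48 counts at day 21 against 0 at day 9, at least 18.7-fold higher, taken against 3 counts over the day 9 group (adjusted p = 0.0251), and at least 28.0-fold higher at day 30 (adjusted p = 0.0366). Most of its day 21 counts came from replicate 1. Hoxa13, which acts in the hindgut, the genital tubercle and the digits, was at 0 CPM in each library at day 9, 0.186 and 0 at day 14, 0.497 and 0.624 at day 21, and 0.927 at day 30, at least 12.9-fold higher at day 21 (adjusted p = 0.0284) and at least 21.2-fold higher at day 30 (adjusted p = 0.0367). Several of the Hoxa calls needed every library. At day 21, Hoxa13 missed the threshold without any 1 of the 5 libraries of days 9 and 21 (adjusted p = 0.0574 to 0.0783), Hoxa11 without day 9 replicate 1 or 2 or day 21 replicate 1 (0.0503 to 0.102), Hoxa7 without day 9 replicate 1 or day 21 replicate 1 (0.0595 and 0.1), and Hoxa3 without day 21 replicate 1 (0.0572). At day 30, Hoxa11 and Hoxa13 missed it without any 1 day 9 library (0.0631 to 0.0841), Hoxa11 also without either day 14 library (0.0665 and 0.0676) and without both (0.0518 at day 21, 0.074 at day 30), and Hoxa3 without day 9 replicate 1 or 3 (0.0681 and 0.0781). Hoxa9 and Hoxa10 were called at both days with each library left out.

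The 4 other Hoxa genes were tested and not called at day 21. Hoxa2, which sets the identity of the second pharyngeal arch, was at 0.344, 0.894 and 0.338 CPM at day 9, 0.139 and 0 at day 14, 1.70 and 0.854 at day 21, and 1.66 at day 30, a log2 change of 1.26 ± 0.71 (SE; adjusted p = 0.243). Hoxa4 was at 0.646, 0.731 and 0.725 CPM at day 9, 0.325 and 0.243 at day 14, 1.49 and 0.854 at day 21, and 1.79 at day 30, a log2 change of 0.74 ± 0.46 (SE; adjusted p = 0.290). Hoxa5, a regulator of lung development, was at 0.732, 1.91 and 0.435 CPM at day 9, 0.837 and 1.21 at day 14, 2.77 and 2.07 at day 21, and 3.18 at day 30, a log2 change of 1.22 ± 0.57 (SE; adjusted p = 0.162). Day 9 replicate 2 was the highest day 9 library for Hoxa2 and Hoxa5, and for Hoxa2 its level overlapped day 21. Hoxa6 was at 0, 0.0406 and 0.0483 CPM at day 9, 0 in both at day 14, 0.391 and 0.296 at day 21, and 0.166 at day 30, that is 20 counts against 2, a ratio of 11.7 (95% interval 2.84 to 103) with adjusted p = 0.0681. The annotated span of Hoxa3 contains Hoxa4, Hoxa5 and Hoxa6, so reads of these genes could have been divided among them by the counting.

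In the Hoxb cluster, 6 of 10 genes were called higher at day 21, against 7.46% of all genes tested. All lie from Hoxb5 to Hoxb13, and 5 of these were called at day 30. Hoxb13, the most posterior gene of the cluster, known from the tail bud and the prostate, was at 0, 0.284 and 0.0483 CPM at day 9, 3.30 and 2.43 at day 14, 6.28 and 8.51 at day 21, and 10.7 at day 30. Each day 14 library was above each day 9 library, and the later libraries were higher again. Its log2 fold change against day 9 was 4.57 ± 0.68 (SE; adjusted p = 0.000579) at day 14, 5.94 ± 0.66 (SE; adjusted p = 0.000476) at day 21 and 6.47 ± 0.71 (SE; adjusted p = 0.000727) at day 30. It was the Hox gene with the smallest adjusted p in each of these 3 comparisons, and it was called in all of them with each library left out. Without Hoxb13, the Hox sum was 10.2, 23.3 and 6.77 CPM at day 9, 15.9 and 10.5 at day 14, 55.8 and 45.2 at day 21, and 64.5 at day 30, with days 21 and 30 again above the rest.

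Next to it in paralog order, Hoxb9, a gene of thoracic patterning, was at 0, 0.284 and 0.0483 CPM at day 9, 0.0465 and 0 at day 14, 2.63 and 3.15 at day 21, and 3.01 at day 30, a log2 fold change of 4.59 ± 0.82 (SE; adjusted p = 0.00615) at day 21 and 4.65 ± 0.91 (SE; adjusted p = 0.0148) at day 30. Hoxb8, which marks early myeloid progenitors and microglia, was at 0, 0.122 and 0.0483 CPM at day 9, 0.0930 and 0 at day 14, 1.35 and 2.07 at day 21, and 1.49 at day 30, a log2 fold change of 4.77 ± 0.88 (SE; adjusted p = 0.00676) at day 21 and 4.57 ± 0.97 (SE; adjusted p = 0.0213) at day 30. In contrast to Hoxb13, both were as low at day 14 as at day 9. Hoxb7 was at 0.301, 0.447 and 0.0967 CPM at day 9, 0.604 and 1.31 at day 14, 1.99 and 2.10 at day 21, and 2.48 at day 30, a log2 fold change of 2.81 ± 0.59 (SE; adjusted p = 0.0121) at day 21 and 3.09 ± 0.67 (SE; adjusted p = 0.0219) at day 30. Hoxb6, a gene of lateral plate mesoderm, was at 0.258, 0.244 and 0.242 CPM at day 9, 0.604 and 0.631 at day 14, 2.24 and 2.89 at day 21, and 3.81 at day 30, a log2 fold change of 3.34 ± 0.39 (SE; adjusted p = 0.000647) at day 21 and 3.91 ± 0.44 (SE; adjusted p = 0.000823) at day 30. The 3 day 9 values of Hoxb6 were close together and every later library lay above them. Hoxb5, known from blood stem cells and enteric neural crest, was at 0.129, 0.244 and 0 CPM at day 9, 0 and 0.389 at day 14, 1.38 and 1.48 at day 21, and 1.99 at day 30, a log2 fold change of 3.42 ± 1.01 (SE; adjusted p = 0.0457) at day 21. The Hoxb5 call was lost without any 1 library of days 9 or 21 (adjusted p = 0.0599 to 0.125). At day 30, Hoxb7 missed the threshold without day 9 replicate 1 (0.0717), and Hoxb8 without day 9 replicate 1 or 3 (0.0616 and 0.0621).

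Hoxb1 to Hoxb4, the anterior end of the cluster, gave no call at day 21 or day 30. Hoxb2, a hindbrain gene needed for facial motor neurons, was at 1.42, 5.85 and 0.628 CPM at day 9, 3.35 and 2.48 at day 14, 2.77 and 1.54 at day 21, and 1.19 at day 30, a log2 change of -0.30 ± 0.78 (SE; adjusted p = 0.820) at day 21 and -1.15 ± 1.06 (SE; adjusted p = 0.543) at day 30. It is the tested member that was negative against day 9 on both days, with day 9 replicate 2 far above the other day 9 libraries. Hoxb3, another hindbrain gene, was at 1.77, 4.06 and 0.725 CPM at day 9, 0.744 and 0.0971 at day 14, 5.22 and 3.58 at day 21, and 4.83 at day 30, a log2 change of 1.00 ± 0.70 (SE; adjusted p = 0.344) at day 21. Hoxb4, which supports self-renewal of blood stem cells, was at 1.12, 3.66 and 0.193 CPM at day 9, 1.02 and 0.194 at day 14, 3.76 and 1.54 at day 21, and 2.48 at day 30, a log2 change of 0.66 ± 0.94 (SE; adjusted p = 0.658) at day 21. The spread among the 3 day 9 libraries was wide for Hoxb2, Hoxb3 and Hoxb4, with replicate 2 highest and replicate 3 lowest for each. Hoxb3 and Hoxb4 overlap in the annotation, so reads could have been divided between them. Hoxb1, a gene of the fourth hindbrain segment, had 1 count in day 9 replicate 2 and 0 in the other libraries.

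The Hoxc cluster was nearly silent at day 9, with 1, 5 and 1 counts over all 9 genes. Its sum was 0.0431, 0.203 and 0.0483 CPM at day 9, 1.07 and 0 at day 14, 4.01 and 3.58 at day 21, and 5.30 at day 30. The genes called higher at day 21 were Hoxc6, Hoxc8, Hoxc9 and Hoxc10, and Hoxc6 was also called at day 30. Hoxc6 was at 0.0431, 0.163 and 0 CPM at day 9, 0.279 and 0 at day 14, 1.17 and 1.48 at day 21, and 1.99 at day 30, a log2 fold change of 4.11 ± 1.01 (SE; adjusted p = 0.0236) at day 21 and 4.70 ± 1.11 (SE; adjusted p = 0.0315) at day 30. Hoxc8, a gene of limb-level motor neurons, was at 0 CPM in each library at day 9, 0.0930 and 0 at day 14, 0.355 and 0.361 at day 21, and 0.431 at day 30, with 21 counts against 0 at day 9, at least 8.18-fold higher (adjusted p = 0.0396). Hoxc9, which acts in thoracic motor neurons, was at 0, 0.0406 and 0 CPM at day 9, 0.651 and 0 at day 14, 0.781 and 0.887 at day 21, and 0.894 at day 30, with 49 counts against 1 at day 9 and a ratio of 57.3 (95% interval 9.81 to 2309; adjusted p = 0.0304). Day 14 replicate 1 held Hoxc9 counts and replicate 2 held none. Hoxc10, a gene of the lumbar level, was at 0 CPM in each library at day 9, 0 in both at day 14, 0.710 and 0.329 at day 21, and 0.596 at day 30, with 30 counts against 0 at day 9 and at least 11.7-fold higher (adjusted p = 0.0309).

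Each of these 4 calls was lost when a library was left out. Hoxc8, Hoxc9 and Hoxc10 missed the threshold without any 1 library of days 9 or 21 (adjusted p = 0.0525 to 0.11), and Hoxc6 without day 9 replicate 1 or 3 or either day 21 library (0.0528 to 0.0852), and at day 30 without day 9 replicate 1 or 3 (0.0719 and 0.106). With DESeq2 Hoxc8 missed it too (adjusted p = 0.0557). The direction was the same in each case. Hoxc5 was at 0 CPM in each library at day 9, 0.0465 and 0 at day 14, 0.213 and 0.0986 at day 21, and 0.431 at day 30, with 9 counts against 0 at day 9 (adjusted p = 0.0994). The other 4 had too few counts to be tested. Hoxc4 was at 0, 0 and 0.0483 CPM at day 9, 0 in both at day 14, 0.213 and 0.0657 at day 21, and 0.166 at day 30, with 8 counts against 1 at day 9 and a ratio of 9.35 (95% interval 1.25 to 415). Hoxc11 was at 0 CPM in each library at day 9, 0 in both at day 14, 0.249 and 0.230 at day 21, and 0.331 at day 30 and was at least 5.46-fold higher at day 21. Hoxc13, a gene of hair and nail, was at 0 CPM in each library at day 9, 0 in both at day 14, 0.178 and 0.131 at day 21, and 0.0993 at day 30 and was at least 3.51-fold higher at day 21. Hoxc12 had 4 counts in day 21 replicate 1 and 11 at day 30, and 0 in the other libraries. Hoxc4, Hoxc5, Hoxc11 and Hoxc13 thus had counts in both day 21 libraries and at day 30, with at most 1 count in any day 9 library.

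The Hoxd cluster was at 0.215, 0.284 and 0.145 CPM at day 9, 1.16 and 0.826 at day 14, 4.86 and 4.04 at day 21, and 7.55 at day 30. Hoxd3, Hoxd4, Hoxd8 and Hoxd13 were called higher at day 21 and at day 30. Hoxd13, a gene of the digits and the anal sphincter, was at 0 CPM in each library at day 9, 0.325 and 0.194 at day 14, 0.852 and 0.427 at day 21, and 0.894 at day 30. It had 0 counts in every day 9 library, counts in every later one, and was at least 5.97-fold higher at day 14 (adjusted p = 0.0151), at least 14.4-fold higher at day 21 (adjusted p = 0.0121) and at least 20.4-fold higher at day 30 (adjusted p = 0.0187). Hoxd8 was at 0 CPM in each library at day 9, 0.325 and 0.340 at day 14, 0.462 and 0.427 at day 21, and 0.861 at day 30. It had the same pattern, at least 7.60-fold higher at day 14 (adjusted p = 0.00750), at least 10.1-fold higher at day 21 (adjusted p = 0.0136) and at least 19.7-fold higher at day 30 (adjusted p = 0.0148). Hoxd4, a hindbrain gene that responds to retinoic acid, was at 0.0861, 0.163 and 0.0483 CPM at day 9, 0.139 and 0 at day 14, 2.63 and 2.66 at day 21, and 4.01 at day 30, a log2 fold change of 4.64 ± 0.66 (SE; adjusted p = 0.00193) at day 21 and 5.24 ± 0.72 (SE; adjusted p = 0.00277) at day 30. Its day 14 values did not exceed those of day 9, unlike those of Hoxd8 and Hoxd13. Hoxd3, which patterns the first neck vertebrae, was at 0, 0.0406 and 0 CPM at day 9, 0 in both at day 14, 0.639 and 0.263 at day 21, and 0.960 at day 30, with 26 counts against 1 at day 9 and a ratio of 30.4 (95% interval 4.99 to 1246; adjusted p = 0.0323), and a ratio of 65.8 (95% interval 10.9 to 2688; adjusted p = 0.0277) at day 30. Hoxd3 missed the threshold without any 1 day 9 library (adjusted p = 0.0681 to 0.104) or day 21 replicate 1 (0.146), and at day 30 without any 1 day 9 library (0.0641 to 0.0959). With DESeq2 it missed it on both days (0.0505 and 0.0560). Hoxd3 and Hoxd4 overlap in the annotation.

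The remaining Hoxd genes were not called at day 21 or day 30. Hoxd9 was at 0.0861, 0.0406 and 0 CPM at day 9, 0.232 and 0 at day 14, 0.249 and 0.0986 at day 21, and 0.662 at day 30, with a ratio of counts to day 9 of 3.90 (95% interval 1.00 to 22.0; adjusted p = 0.355) at day 21 and 15.1 (95% interval 4.49 to 79.5; adjusted p = 0.113) at day 30. Hoxd10 was at 0 CPM in each library at day 9, 0 and 0.291 at day 14, 0.0355 and 0.0329 at day 21, and 0.0662 at day 30, and its 6 counts in day 14 replicate 2 were its highest value. Hoxd11 had 1 count in day 9 replicate 1, 3 in day 14 replicate 1, 4 in day 21 replicate 2 and 3 at day 30. Hoxd1, an anterior gene of pain-sensing neurons, had 1 and 2 counts in day 9 replicates 2 and 3 and 0 in all 5 later libraries. Hoxd12, a digit gene between Hoxd13 and Hoxd11, had 0 counts in every library, which allows up to 3 counts in each.

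The Hoxd cluster therefore held called genes beside genes at 0 from day 14 on, and the sequences before their start sites are shown to let these be compared. Each is the 250 bases upstream of the annotated start from RefSeq, build GRCm38.p6, plus strand, written 5′ to 3′ with every CG dinucleotide in capitals, and comes from a list of promoter windows that holds 22 of the 38 genes. PRC2 is known to be recruited to CG-rich stretches in mouse cells. Hoxd13 (chr2:74667975-74668224, called higher) and Hoxd4 (chr2:74721728-74721977, called higher) are followed by Hoxd1 (chr2:74762730-74762979) and Hoxd12 (chr2:74674763-74675012), both at 0 from day 14 on.
Hoxd13: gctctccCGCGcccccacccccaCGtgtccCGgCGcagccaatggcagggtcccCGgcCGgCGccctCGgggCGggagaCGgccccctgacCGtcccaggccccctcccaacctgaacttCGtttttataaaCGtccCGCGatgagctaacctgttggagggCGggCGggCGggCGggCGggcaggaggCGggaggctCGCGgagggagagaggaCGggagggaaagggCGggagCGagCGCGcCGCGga
Hoxd4: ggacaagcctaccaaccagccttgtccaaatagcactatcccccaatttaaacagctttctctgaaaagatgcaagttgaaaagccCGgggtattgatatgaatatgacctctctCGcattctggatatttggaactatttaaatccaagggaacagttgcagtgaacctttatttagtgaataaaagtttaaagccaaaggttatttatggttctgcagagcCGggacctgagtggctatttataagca
Hoxd1: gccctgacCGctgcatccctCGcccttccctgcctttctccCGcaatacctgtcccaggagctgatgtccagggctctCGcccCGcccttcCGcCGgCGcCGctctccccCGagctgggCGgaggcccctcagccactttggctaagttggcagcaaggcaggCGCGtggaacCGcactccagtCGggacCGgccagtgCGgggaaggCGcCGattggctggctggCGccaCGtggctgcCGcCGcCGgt
Hoxd12: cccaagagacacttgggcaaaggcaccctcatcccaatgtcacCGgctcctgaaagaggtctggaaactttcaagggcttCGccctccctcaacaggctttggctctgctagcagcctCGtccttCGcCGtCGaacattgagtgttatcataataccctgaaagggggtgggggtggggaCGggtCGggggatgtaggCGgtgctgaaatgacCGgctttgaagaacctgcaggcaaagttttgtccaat

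CG counts in these windows were 31 for Hoxd13, 3 for Hoxd4, 24 for Hoxd1 and 10 for Hoxd12. Of all 32851 RefSeq windows of the same length, 5.19% had at least as many as Hoxd13, 71.0% at least as many as Hoxd4, 11.98% at least as many as Hoxd1 and 37.8% at least as many as Hoxd12. CG is its own reverse complement, so the count is the same on both strands. The median window held 6. Of the other Hoxd windows in the list, those of Hoxd3 and Hoxd8, both called higher, held 12 and 6, that of Hoxd9, not called, held 13, and those of Hoxd10 and Hoxd11, with too few counts to be tested, held 20 and, for the 2 starts of Hoxd11, 2 and 20. A check of CG content over all members is void, because fewer than 80% have a window in the list.

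By position along the clusters, 2 of 7 anterior, 9 of 15 central and 9 of 16 posterior genes were called higher at day 21. Of these sets 5, 14 and 10 genes were tested, some of which passed the filter through the later libraries alone. At day 30 the counts called were 2, 7 and 7. Over all tested genes, 7.46% were called higher at day 21 and 3.67% at day 30. Ranges of day 21 lay above day 9 for 2 of 7 anterior, 14 of 15 central and 13 of 16 posterior genes. Of all tested genes 24.7% lay above. The anterior genes as a set were at 5.08, 13.8 and 3.72 CPM at day 9, 5.86 and 3.84 at day 14, 18.1 and 11.9 at day 21, and 15.5 at day 30, so that day 21 replicate 2 lay below day 9 replicate 2. The posterior genes were at 1.38, 1.46 and 1.02 CPM at day 9, 8.18 and 4.13 at day 14, 21.3 and 21.9 at day 21, and 30.6 at day 30, every later library lying above every day 9 library. Posterior genes made up 13.5%, 6.21% and 14.9% of Hox counts at day 9, 42.5% and 31.8% at day 14, 34.3% and 40.7% at day 21, and 40.7% at day 30. Every later library had a higher posterior share than every day 9 library. Hoxb13 alone made up 0%, 1.21% and 0.709% of Hox counts at day 9, and 17.1% and 18.7% at day 14. It made up 10.1% and 15.8% at day 21 and 14.2% at day 30.

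**Figure D3:**
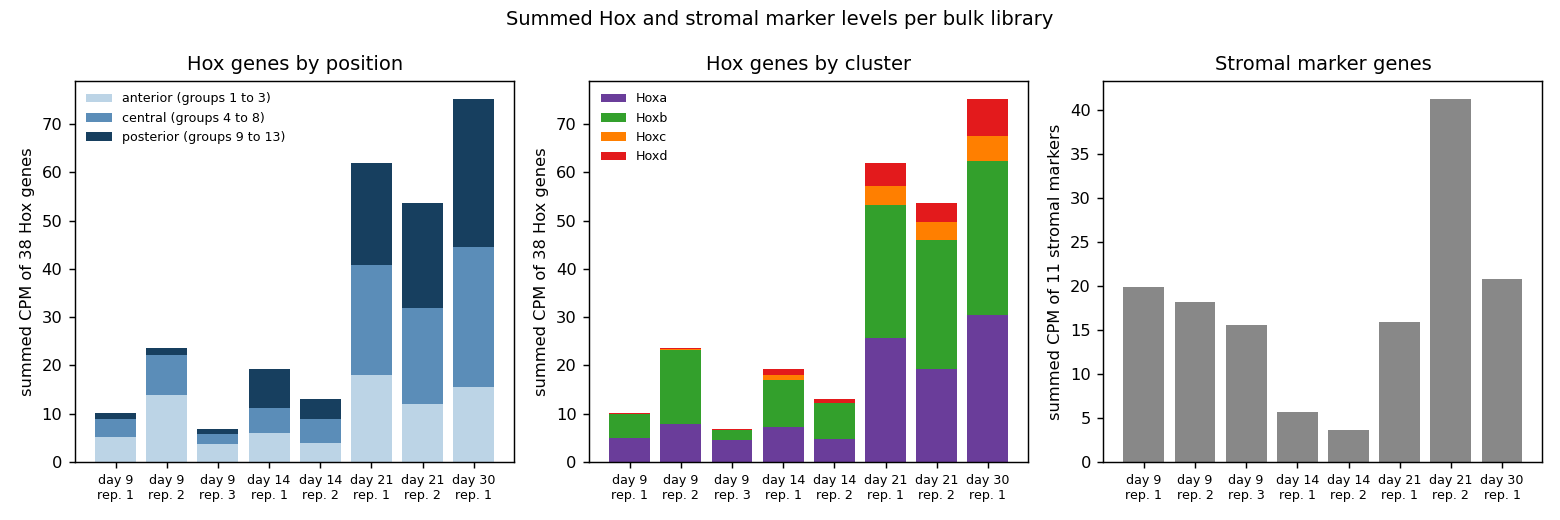
Summed CPM of the 38 Hox genes per bulk library, stacked by position (left) and by cluster (middle), and summed CPM of 11 stromal marker genes (right), each bar 1 library. The posterior part of the Hox sum is larger in all libraries from day 14 on, Hoxc and Hoxd are visible mainly at days 21 and 30, and the stromal sum, most of it Vim, is highest in day 21 replicate 2.

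At day 14, 6 of the 38 Hox genes were higher than at day 9 and 2 lower. Over all tested genes 25.4% were called higher and 25.7% lower, so the counts of 6 and 2 out of 38 lie below the background of that comparison, and the day 14 libraries stand apart as described. The 6 were Hoxa10, Hoxb6, Hoxb7, Hoxb13, Hoxd8 and Hoxd13, and all were also called at day 21. Hoxa10 changed by 1.77 ± 0.63 (SE; adjusted p = 0.0425) on the log2 scale, Hoxb6 by 1.30 ± 0.43 (SE; adjusted p = 0.0329) and Hoxb7 by 1.72 ± 0.62 (SE; adjusted p = 0.0441). The 2 lower genes were Hoxa2, with 3 counts against 37, a ratio of 0.132 (95% interval 0.0260 to 0.417; adjusted p = 0.0494), and Hoxb3, with a log2 change of -2.36 ± 0.87 (SE; adjusted p = 0.0494). Both were lost with another scaling: adjusted p = 0.0504 for Hoxa2 and 0.0511 for Hoxb3 with relative log expression, and 0.0502 and 0.0504 with library size. Ranges at day 14 lay above day 9 for 7 of 38 members and below for 2, while 33.6% of tested genes lay above.

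The day 14 calls also depended on single libraries. Hoxb6 was lost without any 1 library of days 9, 14 or 21 (adjusted p = 0.0549 to 0.0928). Hoxb7 was lost without day 9 replicate 1 or 3, day 14 replicate 2 or either day 21 library (0.0632 to 0.259), and Hoxa10 without day 9 replicate 2 or 3, day 14 replicate 1 or either day 21 library (0.0529 to 0.696). Hoxd13 was lost without day 14 replicate 1 (0.0544), Hoxa2 without any 1 library of days 9 or 21 or day 14 replicate 2 (0.0538 to 0.177), and Hoxb3 without day 9 replicate 1 or 2, day 14 replicate 2 or either day 21 library (0.0542 to 0.227). Hoxb13 and Hoxd8 were called with each library left out. The count of higher genes was 3 without day 9 replicate 3, 3 without day 14 replicate 1, and 1 with the 2 days fitted alone, where Hoxa10, Hoxb3, Hoxb6 and Hoxb7 had adjusted p = 0.0686, 0.0582, 0.103 and 0.0722. With DESeq2 Hoxb6 and Hoxb7 missed the threshold (0.116 and 0.0505), and without the filter on low counts Hoxb6 did (0.0502).

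Day 21 against day 14 gave 13 Hox genes higher and 0 lower, with 29.5% of all tested genes called higher and 58.6% in either direction. They were Hoxa2, Hoxa3, Hoxa4, Hoxa6, Hoxa9, Hoxb3, Hoxb6, Hoxb8, Hoxb9, Hoxc6, Hoxc10, Hoxd3 and Hoxd4. Hoxb9, with 170 counts against 1 at day 14, had a ratio of 122 (95% interval 21.6 to 4852; adjusted p = 0.00161), and Hoxa9 rose by 2.40 ± 0.38 (SE; adjusted p = 0.000683) on the log2 scale. Ranges lay above day 14 for 29 of 38 members, against 41.8% of tested genes. Without day 21 replicate 1 the count was 8, with Hoxa4, Hoxc6, Hoxc10 and Hoxd3 among those lost (adjusted p = 0.0574 to 0.102). Hoxc6 was also lost without day 14 replicate 2 (0.0832) or day 21 replicate 2 (0.0897), and Hoxb3 without day 14 replicate 2 (0.0699). With DESeq2 Hoxa6 was not called (0.0664). Library-size scaling, which moved the median of all genes by 0.18, put 60.7% of all calls higher against 50.3%.

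Between day 30 and day 21 no Hox gene was called, and 0% of all tested genes were called higher by edgeR's quasi-likelihood test. At an unadjusted p below 0.05 there were 0 Hox genes and 1218 genes in all, and DESeq2 called 0 Hox genes and 299 genes. The day 30 value lay above both day 21 values for 22 of 38 members and below for 3, and 41.2% of tested genes lay above. Hoxa9, with 5.40 CPM in the day 30 library against 3.02 and 3.52 CPM in the day 21 libraries, is an example, with a log2 change of 0.72 ± 0.40 (SE; adjusted p = 0.711).

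Several RNAs annotated inside the clusters that are not Hox genes were also higher. Mira, an RNA between Hoxa6 and Hoxa7, had 60 and 50 counts at day 21 and 92 at day 30, against 2, 7 and 16 counts at day 9 (log2 fold change 2.32 ± 0.69 SE at day 21, adjusted p = 0.0468). Hoxa11os, the antisense partner of Hoxa11, had 36 and 24 counts at day 21 against 0 at day 9, at least 23.4-fold higher (adjusted p = 0.00578). No source used here says whether reads were counted by strand, so Hoxa11 and Hoxa11os cannot be told apart. In the Hoxb cluster, Gm11538 had 33 and 35 counts and Gm53 had 24 and 16 at day 21, both with 0 at day 9, at least 26.5-fold and 15.6-fold higher (adjusted p = 0.00239 and 0.0135). All 4 were called at day 30 too. Hotair, in the Hoxc cluster, had 2 and 3 counts at day 21, 5 at day 30, and 0 in the libraries of days 9 and 14.

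The genes of miR-196, a microRNA of the Hox clusters known in mouse to cleave Hoxb8 mRNA, also had no count at day 9. Mir196a-2, of the Hoxc cluster, had 0 counts in all 8 libraries. Mir196a-1, which lies between Hoxb9 and Hoxb13, had 8 and 1 counts at day 21, 5 at day 30, and 0 in the libraries of days 9 and 14. Mir196b, which lies between Hoxa9 and Hoxa10, had 4 and 0 counts at day 21, 1 at day 30 and 0 earlier. These are counts per gene and say nothing of the mature form, and none of the 3 genes had enough counts to be tested. The mature forms are shown because they share the seed that pairs with targets, given in capitals (bases 2 to 8). Both are from RefSeq, build GRCm38.p6: miR-196a-5p from chr11:96265187-96265208, plus strand, and miR-196b-5p from chr6:52230129-52230150, minus strand.
mmu-miR-196a-5p: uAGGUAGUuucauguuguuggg
mmu-miR-196b-5p: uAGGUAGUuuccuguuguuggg

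The mature forms are 22 bases long and differ at 1 base, outside the seed. At the edges of the clusters, Evx1, a homeobox gene beside Hoxa13, had 16 and 14 counts at day 21 against 2, 1 and 1 at day 9 (log2 fold change 3.03 ± 0.84 SE, adjusted p = 0.0411), and was not called at day 30 (adjusted p = 0.372). Evx2, its counterpart beside Hoxd13, had 0 counts in every library. Of the nearest other protein-coding genes on either side, 0 were called higher at day 21, where 7.46% of all genes tested were. These genes are too few for a count of 0 to be told from that share. Those called lower were Snx10, Cbx3 and Hibadh beside Hoxa, Atp5g1 beside Hoxb, Atp5g2 beside Hoxc, and Atp5g3 and Hnrnpa3 beside Hoxd. Over all genes tested 12.8% were called lower. Cbx3, Hnrnpa3 and the Atp5g genes have near-identical copies elsewhere, so their values are uncertain.

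Genes that work with or upstream of Hox proteins were called at about the rate of all genes at day 21, 5 of the 21 tested among 24 listed, against 20.2% of all genes tested. Of 9 listed Hox cofactors (Pbx, Meis and Pknox families), Meis1 was called higher at day 21, at 1.53 and 0.887 CPM against 0.301, 0.122 and 0.290 CPM at day 9 (log2 fold change 2.33 ± 0.68 SE, adjusted p = 0.0443), and 0 were called at day 30. Of 15 listed genes upstream of Hox, mostly of retinoic acid signalling, Rxra, Cyp26b1 and Aldh1a2 were higher at day 21 and Rxrb lower. Cyp26b1, which degrades retinoic acid, changed by 3.37 ± 0.97 on the log2 scale (SE, adjusted p = 0.046). Of 14 trithorax genes, which maintain active Hox chromatin, Setd1b, Ash2l and Kmt2d were higher by 0.86 ± 0.16, 0.32 ± 0.09 and 0.35 ± 0.10 (adjusted p = 0.00719, 0.0374 and 0.0427). Of 11 PRC2 genes Phf19 was higher and Mtf2 lower, and of 19 PRC1 genes 3 were higher and 6 lower, where 7.46% of all genes tested were called higher and 12.8% lower, with Rybp having the smallest adjusted p at -1.88 ± 0.16 (SE, adjusted p = 7.82e-05). Cbx6 changed by 3.34 ± 0.60 (SE, adjusted p = 0.0059), with its day 21 libraries far apart at 84.2 and 13.8 CPM, against 4.99, 5.28 and 4.16 CPM at day 9. At day 30 these lists gave 2 trithorax genes higher, Phf19 higher, and 1 PRC1 gene higher and 2 lower, with Aldh1a1 lower among the upstream genes. Among genes of distal intestinal epithelium, Osr2 was higher at day 21 (log2 fold change 0.69 ± 0.16 SE, adjusted p = 0.0191), and Car4 was lower at day 30. Of 8 genes of proximal epithelium 0 were called higher or lower at day 21, and Rbp2 was lower at day 30.

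Hox genes are also expressed in gut mesenchyme, so markers of other cells were read in the same libraries. Of 11 stromal markers, Col1a2 and Col3a1 were called higher at day 21 and 0 at day 30. The sum of the 11 was 19.9, 18.2 and 15.5 CPM at day 9, 5.62 and 3.59 at day 14, 15.9 and 41.2 at day 21, and 20.8 at day 30, most of it Vim. Col1a2 was at 3.02 CPM in day 21 replicate 2 and at 0.355 CPM in replicate 1. Without Vim, the summed CPM of the other 10 was 5.93 and 14.6 in the day 21 libraries and 5.76 in the day 30 library, above the 2.07, 4.59 and 3.77 of day 9. It was 1.77 and 2.57 in the day 14 libraries. Day 21 replicate 1 had less Vim than any day 9 library (9.94 CPM against 11.7 to 17.8) and more of the other 10. The Hox sum was 53.7 CPM in day 21 replicate 2 and 62.1 CPM in replicate 1. Without day 21 replicate 2, 14 Hox genes were called higher at day 21. Of 18 immune markers Csf1r, C1qb and Lyz2 were higher at day 21, of 11 neuron and glia markers Ret was, and 0 of 7 endothelial and 0 of 6 muscle markers were. At day 30, 0 genes of these 5 lists were called higher. Among epithelial types at day 21, 6 of 10 tuft, 4 of 14 enteroendocrine, 4 of 9 enterocyte and 2 of 7 goblet markers were higher, 2 of 8 Paneth markers were lower, and 7 of 13 stem cell markers were lower, Lgr5 among them (-0.49 ± 0.10 SE, adjusted p = 0.00918). Of 7 general epithelial markers Vil1 was higher and Krt8 and Cldn7 lower. At day 30, 5 tuft, 2 goblet, 1 enteroendocrine and 1 stem cell markers were higher, and 4 Paneth, 1 enteroendocrine, 1 enterocyte, 1 general epithelial and 0 stem cell markers were lower. Among all genes tested, the share with a higher call was 7.46% at day 21 and 3.67% at day 30. The share with a lower call was 12.8% at day 21 and 6.62% at day 30. Whether any of these marker lists departs from those shares was not tested. The part of these marker shifts in the Hox counts was not tested either.

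The single-cell libraries, made with the Chromium 3′ kit, gave counts of Hox RNA per cell barcode at days 7, 12 and 16. After filtering, 3828, 4685 and 2768 cells were kept, with medians of 7957, 7560 and 11905 unique molecular identifiers (UMIs) per cell. There is 1 library per day, so no test can be made, and the intervals given cover counting error. The kept libraries share 4 barcodes (days 7 and 12), 1 (days 7 and 16) and 4 (days 12 and 16). Eed gave 54.4, 27.5 and 26.6 UMIs per 1000000 UMIs of kept cells (also written CPM) in day order, and Lgr5 gave 197, 233 and 44.9. Epcam was found in at least 99.4% of cells of each library.

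Hox UMIs were as scarce at day 12 as at day 7 and more frequent at day 16. They summed to 647 (18.2 CPM, 95% interval 16.8 to 19.7) at day 7, 708 (17.6 CPM, 16.3 to 18.9) at day 12 and 1880 (53.3 CPM, 50.9 to 55.8) at day 16. The ratio of day 16 to day 7 was 2.93 (2.67 to 3.20), and that of day 12 to day 7 was 0.963 (0.865 to 1.07). The number of members with any UMI was 16, 17 and 35. Cells with at least 1 Hox UMI were 9.64% (interval 8.72 to 10.6) at day 7, 9.69% (8.86 to 10.6) at day 12 and 28.4% (26.8 to 30.2) at day 16. Thinned to 2000 UMIs per cell, with 0 cells left out, the shares were 3.45%, 3.12% and 9.83%. Free RNA adds to such shares. Barcodes under 100 UMIs, taken here as free RNA, gave 20.8 (15.8 to 26.95), 16.7 (12.9 to 21.3) and 43.2 (36.8 to 50.3) Hox CPM in day order. Barcodes between 100 UMIs and the threshold for cells gave 10.3 (5.99 to 16.5), 6.38 (2.57 to 13.2) and 30.3 (22.8 to 39.6), below the cells on each day. The level in cells was within the intervals of the barcodes under 100 UMIs at days 7 and 12 and above it at day 16. How much free RNA each cell holds was not measured, so this comparison of levels cannot say which Hox UMIs are free RNA. At day 7 the 490422 barcodes under 100 UMIs held 57 Hox UMIs in all, and the 3828 kept cells held 647. At day 12 the 535799 such barcodes held 65, and the 4685 kept cells held 708. The shares are of cells that hold a Hox UMI, and the part of free RNA in them was not tested.

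**Figure D4:**
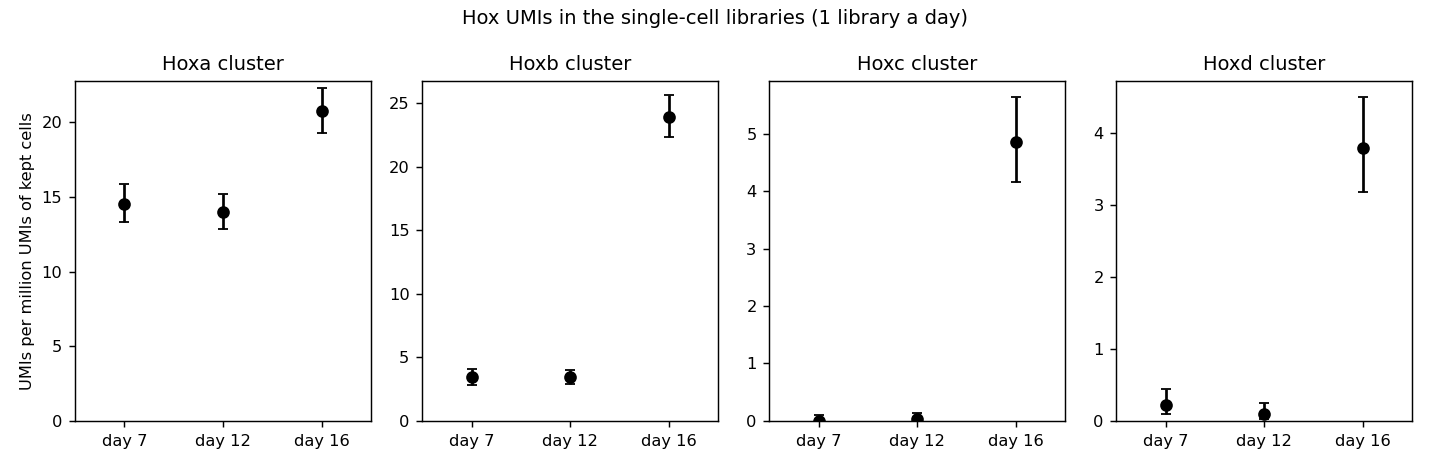
Hox UMIs per 1000000 UMIs of kept cells in each single-cell library (y axis, linear, own scale per panel) by day (x axis), 1 panel per cluster, with exact 95% Poisson intervals. The intervals of days 7 and 12 overlap in each panel, and day 16 is 1.42 times day 7 for Hoxa and 6.97 times for Hoxb.

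The clusters differed in where they started. Hoxa gave 517, 565 and 731 UMIs at days 7, 12 and 16, Hoxb 122, 138 and 844, Hoxc 0, 1 and 171, and Hoxd 8, 4 and 134. By CPM, day 16 was 1.42 times day 7 for Hoxa (1.27 to 1.60), 6.97 times for Hoxb (5.76 to 8.49), 16.9 times for Hoxd (8.32 to 39.9), and at least 57.4-fold higher for Hoxc. By position, the ratio of day 16 to day 7 was 2.01 (1.56 to 2.61) for anterior genes, 2.33 (2.06 to 2.64) for central genes and 4.69 (3.98 to 5.55) for posterior genes. Posterior genes gave 27.2%, 17.2% and 43.6% of Hox UMIs at days 7, 12 and 16. Hoxb13 alone gave 0 of 176 posterior UMIs at day 7, 1 of 122 at day 12 and 339 of 819 at day 16. The posterior ratio and share at day 16 thus rest in part on this 1 gene. The anterior, central and posterior intervals of the day 12 to day 7 ratio were 0.737 to 1.32, 0.979 to 1.29 and 0.480 to 0.773, so posterior UMIs were lower at day 12 than at day 7 beyond counting error.

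Hoxb13 had 0 UMIs at day 7, 1 at day 12 and 339 at day 16, at least 114-fold higher at day 16 than at day 7, with a ratio of 388 (69.1 to 15361) to day 12. The rest of the Hoxb run from Hoxb5 to Hoxb9 was likewise near 0 at first. In day order, Hoxb5 had 2, 0 and 23 UMIs, Hoxb6 had 1, 1 and 58, Hoxb7 had 1, 2 and 104, Hoxb8 had 0, 0 and 36, and Hoxb9 had 3, 4 and 88. The genes from Hoxb2 to Hoxb4 were present throughout, with 28, 36 and 62 UMIs for Hoxb2, 26, 23 and 34 for Hoxb3, and 61, 71 and 100 for Hoxb4. Hoxb1 had none. The day 16 to day 7 ratio was 2.23 (1.41 to 3.62) for Hoxb2, 1.32 (0.767 to 2.29) for Hoxb3 and 1.65 (1.19 to 2.31) for Hoxb4.

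In the Hoxa cluster the genes from Hoxa3 to Hoxa10 were found on all 3 days, apart from Hoxa6. In day order, Hoxa3 had 34, 40 and 70 UMIs, Hoxa4 had 21, 24 and 48, Hoxa5 had 103, 249 and 147, Hoxa7 had 187, 131 and 184, Hoxa9 had 123, 86 and 139, and Hoxa10 had 42, 30 and 113. Hoxa7 and Hoxa9, called higher in the bulk at day 21, had day 16 to day 7 ratios whose intervals include 1, at 0.991 (0.804 to 1.22) and 1.14 (0.886 to 1.46), and Hoxa5 was highest at day 12. Hoxa10 had a ratio of 2.71 (1.89 to 3.96). Hoxa2 had 5, 5 and 14 UMIs and Hoxa6 had 2, 0 and 5. Hoxa11 and Hoxa13 had 0 UMIs at days 7 and 12, and 4 and 7 at day 16.

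Hoxc and Hoxd genes were close to absent before day 16. Of the Hoxc genes, Hoxc9 had 0, 1 and 62 UMIs in day order, and the other 8 had 0 at days 7 and 12. At day 16 they had 55 (Hoxc6), 20 (Hoxc8), 10 (Hoxc12), 8 (Hoxc10), 7 (Hoxc11), 4 (Hoxc4), 4 (Hoxc5) and 1 (Hoxc13). Of the Hoxd genes, Hoxd4 had 0, 2 and 63 UMIs, Hoxd8 had 0, 2 and 24, and Hoxd13 had 8, 0 and 25. Hoxd13 at day 7 is the exception to the low start, and its day 16 to day 7 ratio was 3.15 (1.38 to 8.07). Hoxd9 had 12 UMIs at day 16, Hoxd3 had 6, Hoxd11 had 3 and Hoxd10 had 1, with 0 on the other days. Hoxd1 and Hoxd12 had 0 UMIs on every day, which allows up to 0.0851 CPM at day 16.

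Among members with at least 10 UMIs summed over the 2 days compared, 19 of 24 were at least 2-fold higher in CPM at day 16 than at day 7, and 0 at least 2-fold lower. Of all genes counted that way, 10.8% were that much higher and 12.5% that much lower. Against day 12 the figure was 18 of 24, with 11.7% of all genes, and for day 12 against day 7 it was 1 of 10, with 12.6% of all genes. The 24 include genes that reached 10 UMIs through day 16 alone, so the count is a description.

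More cells held Hox UMIs of different clusters at day 16 than on the earlier days. UMIs from at least 2 clusters were held by 12 of 369 cells with a Hox UMI at day 7 (3.25%), 17 of 454 at day 12 (3.74%) and 292 of 787 at day 16 (37.1%). At day 16, 92 cells held UMIs of at least 3 clusters and 53 held UMIs of at least 5 members, against 0 and 0 on both earlier days. The largest number of members in 1 cell was 4, 4 and 9 in day order. Cells with 5 or more Hox UMIs at day 16 were 96 of 2768, held 32.7% of all Hox UMIs, and had a median of 13017 UMIs against 11743 in cells with none. Doublets were not removed. These shares were not matched for depth, and kept cells had medians of 7957, 7560 and 11905 UMIs in day order. Nor were they matched for the number of Hox UMIs per cell, and Hoxc and Hoxd were close to absent before day 16. Whether clusters met in a cell more often than their separate frequencies give was not tested.

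Cdkn2a, a cell cycle inhibitor that is a classic PRC2 target, was also higher at the late days. In the bulk it was at 0.387, 0.284 and 0.290 CPM at day 9, 0.0930 and 0 at day 14, 11.9 and 11.6 at day 21, and 8.08 at day 30 (log2 fold change 5.17 ± 0.38 SE at day 21, adjusted p = 3.57e-05). In single cells it had 0, 51 and 944 UMIs in day order. Of the 371 day 16 cells with a Cdkn2a UMI, 278 also held a Hox UMI (74.9%, interval 70.2 to 79.3), against 509 of the 2397 cells without one (21.2%, 19.6 to 22.9). Their median depths were 13153 and 11715 UMIs, and their Hox level was 165 and 34.0 CPM. Posterior genes were at 89.9 CPM (82.0 to 98.4) in cells with Cdkn2a against 11.7 (10.5 to 12.9) in the rest, and anterior genes at 8.82 (6.46 to 11.8) against 4.66 (3.92 to 5.50). The Hox level of the cells without Cdkn2a lay below that of free RNA, and that of the cells with it lay above. These levels cannot say which Hox UMIs of either group are free RNA, and that part was not tested. The cells without Cdkn2a held 1020 Hox UMIs and those with it 860. Thinned to 2000 UMIs, the shares were 37.1% of 116 cells (28.3 to 46.5) against 8.63% of 2652 (7.59 to 9.77). Eed was at 15.9 CPM in cells with Cdkn2a against 28.5 in the rest.

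**Figure D5:**
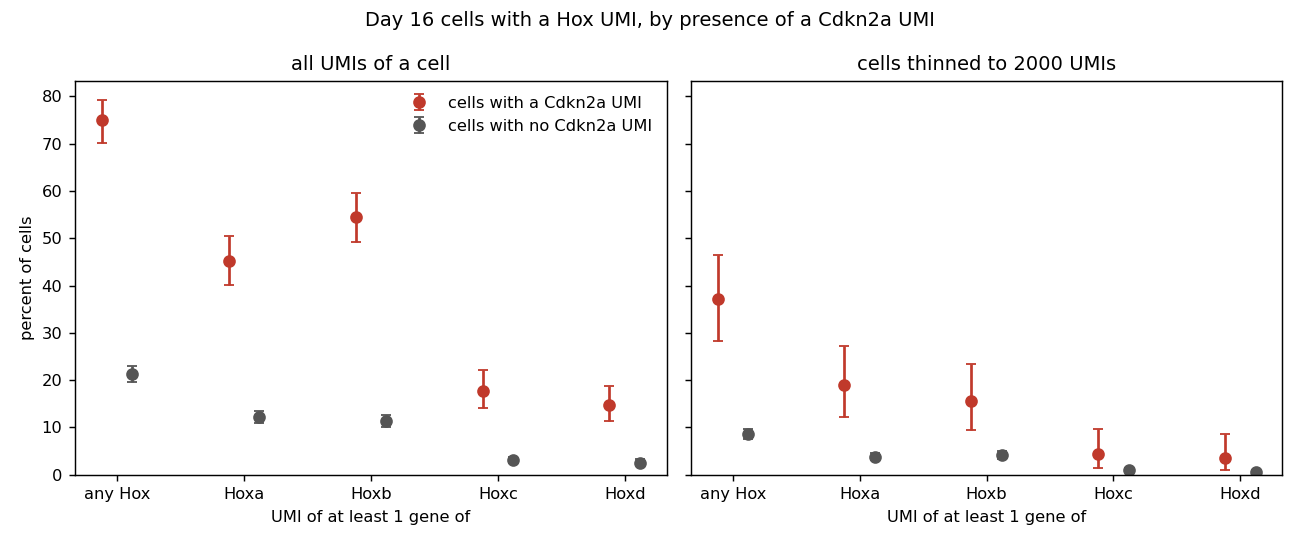
Share of day 16 cells that hold a UMI of any Hox gene or of a gene of each cluster (x axis), for cells with and without a Cdkn2a UMI, with exact 95% binomial intervals. Left, all UMIs, right, cells thinned to 2000 UMIs; cells with a Cdkn2a UMI lie higher in every group shown, and for Hoxc and Hoxd the intervals are wide after thinning.

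Of the 209 day 16 cells with a Hoxb13 UMI, 75.1% held a UMI of another Hox gene (interval 68.7 to 80.8), against 22.6% of the 2559 other cells (20.98 to 24.3), with median depths of 12551 and 11841 UMIs. Hoxc UMIs were held by 23.9% of cells with Hoxb13 against 3.48%, and Hoxd UMIs by 14.4% against 3.40%. Thinned, the shares for any other Hox gene were 17.5% of 57 cells (8.75 to 29.9) against 7.93% (6.94 to 9.01). For Hoxc alone they were 3.51% (2 of 57 cells; 0.428 to 12.1) against 1.14% (0.778 to 1.62), and for Hoxd 0 of 57 (0 to 6.27%) against 0.701% (0.422 to 1.09), so no difference for either cluster was detectable at this depth. Of 833 day 16 cells with an Lgr5 UMI, 22.7% (19.9 to 25.7) held a Hox UMI, against 30.9% (28.8 to 33.02) of the 1935 others, with median depths of 10995 and 12340. Thinned, these were 4.55% (2.29 to 7.99) and 10.3% (9.17 to 11.6).

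At day 16 cells with and without a Hox UMI held Epcam UMIs almost equally, 784 of 787 against 1967 of 1981, so Epcam does not separate them. Vil1 UMIs were in 79.2% against 73.6%, and UMIs of Ptprc, which marks immune cells, in 9 (1.14%) against 23 (1.16%). Col1a1 UMIs were in 2 against 0 cells, and Col1a2 and Col3a1 UMIs in 0 of either. The 11 stromal markers summed to 98.8, 679 and 22.5 CPM in day order, nearly all from Vim (98.4, 678 and 21.5). The other 10 held 15, 44 and 36 UMIs (0.422, 1.09 and 1.02 CPM), with Pdgfrb at 2, 4 and 22 UMIs and Col1a2 and Col3a1 at 0 in each library. Their part in the Hox level was not tested. Cells holding at least 3 of the stromal markers numbered 0 in each library. Among cells holding at least 3 markers of an epithelial type at day 16, Hox CPM was 204 (178 to 233) in the 109 with enteroendocrine markers (median 6982 UMIs), against 48.5 in all other cells, and 56.8 (52.4 to 61.4) in the 694 with enterocyte markers, against 51.8. Goblet, Paneth and stem cell markers gave 81.2, 74.6 and 44.3, against 48.4, 48.3 and 112.5 in the respective other cells. Cells with stem cell markers were also below the others at day 7, at 17.7 against 70.8, but not at day 12, at 17.6 against 14.6. Those other cells held 27 Hox UMIs at day 7 and 12 at day 12. At day 7 the enteroendocrine value was already 101 (79.8 to 126; 94 cells) against 16.4, and at day 12 it was 65.1 (34.7 to 111; 24 cells) against 17.3. Cells with tuft markers were also above the others at day 7, at 65.5 (43.9 to 94.1; 45 cells) against 17.6, and at day 12, at 41.02 (22.96 to 67.6; 36 cells) against 17.3, and at day 16 they were at 44.6 (30.1 to 63.7; 57 cells) against 53.5. The mix of cells by these markers differed between days. In day order, enterocyte markers were held by 36, 68 and 694 cells and goblet markers by 153, 85 and 387. Stem cell markers were held by 3745, 4580 and 2317 cells and Paneth markers by 536, 401 and 486. What part this has in the Hox difference between days was not tested.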

How the data were processed

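Bulk RNA was measured in 8 libraries and single-cell RNA in 3 libraries of intestinal epithelial cells. The authors deposited a table of read counts per gene and, for single cells, unfiltered UMI counts per gene and barcode. STAR 2.5.3a, DESeq2 and Cell Ranger 3.0.2 and the build mm9 are named in the submitters' processing notes. No source used here gives gene lengths or the strand setting of the counting, so levels are not compared between genes. The bulk table has 1 further column of per-sample values, which was not used. It names 24014 genes, 27 of them turned into dates.

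The deposited counts, 21328684 to 27900351 per library, were filtered with filterByExpr (minimum count 10, total 15), scaled by TMM and tested with edgeR 4.0.16's quasi-likelihood test (R 4.3.3) over all 4 days. The fit had 4 residual degrees of freedom, and p-values were adjusted by Benjamini-Hochberg over the 14692 genes tested. CPM are counts per 1000000 library counts, with TMM factors applied. A gene with 0 counts in a group was set against 3 counts over that group, and one with 1 to 3 counts was given as a ratio of counts with an exact 95% interval. Intervals and limits cover counting error only. No 2 libraries of a day agreed within sampling noise (lowest chi-square per degree of freedom 9.35).

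Barcodes above 10% of the 99th percentile of the top 5000 barcodes, if they held 500 genes or more and no more than 20% of UMIs from mitochondrial genes, were kept as cells (Python 3.11.15, SciPy 1.17.1). No doublet caller was run. Intervals of UMI sums are exact Poisson and those of shares are exact binomial (Clopper-Pearson). Cells were thinned to 2000 UMIs to compare shares across depths.

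Values were given for every Hox gene with a count in both day 21 libraries, for Eed, Ezh2, Lgr5, Epcam and Cdkn2a as checks (Ezh2 was at 92.6 to 121 CPM), for up to 3 genes of smallest adjusted p per list, and for genes within and beside the clusters. The members and lists were chosen with earlier results of these data known. The pipeline was tested on simulated data. DESeq2 1.42.0, other scalings, no filter, fewer groups, a replicate block and leaving out each library were tried as alternatives. Promoter and microRNA sequences are from RefSeq (GRCm38.p6). The labels describe day 9 replicate 3 as biological replicate 2, and its title was followed. The second sample of day 30 is not analysed here. One gene of the list of distal intestinal epithelium is not reported here.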

Additional observations from a re-analysis of the deposited data

How the results depend on the processing

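None of the called Hox changes, counts or levels reversed its direction under any alternative run. Of the alternatives for counts and levels, 119 stayed close to the main value and 29 moved. A further set covers single Hox genes and the count of Hox genes called lower at day 14 against day 9. In it 630 values stayed the same, 140 single genes lost a call and 10 values moved. The 10 are all of the day 14 count, which was 2 in the main fit and fell to 0 or 1 in them. At day 21 against day 9 the count of 20 higher Hox genes ranged from 10 to 21 with 1 library left out, and the 2974 genes called in all ranged from 1864 to 2811. At day 30 against day 9 the 16 Hox genes ranged from 9 to 17 and the 1511 genes from 875 to 1832, with 2377 genes under library size scaling. At day 14 against day 9 the 6 Hox genes ranged from 3 to 6, and were 1 with the 2 groups fitted alone. At day 21 against day 14 the 13 Hox genes ranged from 8 to 16. Between days 30 and 21, where 0 genes were called, DESeq2 called 299 genes, the fit without a low-count filter 36, and leaving out 1 library gave 0 to 335, with 335 without day 21 replicate 2, and 0 Hox genes in each. Fits with a library left out have fewer samples.

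Replicate numbers are shared between days, but same-numbered libraries did not deviate together (correlations of -0.0206 to 0.0476), so the numbers were not taken to pair samples. A fit with the replicate block called 9 Hox genes higher at day 21 against day 9, 4 at day 30 and 2 at day 14. It called 1689 genes at day 21 against day 9, 764 at day 30 against day 9 and 22 at day 30 against day 21.

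The Hox level was 19.7 UMIs per 1000000 at day 7 and 62.7 at day 16 with cells thinned to 2000 UMIs, and 19.99 and 59.7 with mitochondrial UMIs left out of the total, against 18.2 and 53.3 as reported. The 9 Hox genes that could not be tested, and most Hoxc and Hoxd genes, rest on few molecules. Single days of single cells, and day 30 in bulk, have 1 library each.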
